A study of Bos taurus with 129 samples.

Results

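Bovine respiratory disease (BRD) was compared with health among the stocker steers fed amino acid-complexed Cu, Co, Mn and Zn (AAC), whose 2 enrollment pens, pens 2 and 8, each held cattle of both classes. Every library labelled AAC was taken, 39 libraries from 8 of the 26 animals of the series (which also holds 55 INR and 35 COMBO libraries of other supplement groups), and the log2 CPM (counts scaled to the size of the library) of each gene were averaged over days 13, 28, 45 and 60, so that each steer entered a comparison once. The class with BRD (disease Yes) held animals 21 and 31 of pen 2 and animals 9 and 41 of pen 8, with 16 libraries over those days. The healthy class (disease No) held animals 34 and 49 of pen 2 and animals 46 and 48 of pen 8, with 15 libraries, because the day 13 library of animal 48 was removed by the study after failing to cluster.

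All of these cattle were commercial crossbred beef steers of unknown earlier history, with no age in the labels, and all received the AAC supplement, doramectin and a vaccine against bovine respiratory syncytial virus, parainfluenza-3 virus, both types of bovine viral diarrhea virus and bovine herpesvirus-1 at day 0, with a further dose of it later. The study rotated the cattle between pens through its course, so a pen here is the pen of enrollment. The labels give whether a steer had BRD and not when it was diagnosed or treated, and the study's text describes only healthy cattle as never diagnosed or treated in its 60 days. A library of a steer with BRD may therefore have been drawn before, during or after illness, and treatment for BRD cannot be told apart from BRD itself. Over the 100 genes that differed most between animals (F statistic, chosen without the library in question), each of the 39 AAC libraries correlated best with the other libraries of its own animal (lowest r 0.733, against at most 0.425 with any other animal). Over 96 genes that were near 0 counts in some libraries and high in others, 36 of the 39 did. There the lowest r with the own animal was 0.462, against up to 0.8 with another animal. Blood was drawn into RNA-preserving tubes, and the mRNA libraries were sequenced with paired-end reads. Total gene counts ran from 36169143 to 58556286 per AAC library (median 44560565), and mean library totals per animal did not separate the classes (4.75e+07 ± 3.75e+06 with BRD, 4.53e+07 ± 3.32e+06 in healthy cattle; SD, n = 4; two-sided exact permutation p = 0.457; the smallest p that 4 against 4 allows is 0.0286).

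Bovine respiratory disease is a pneumonia of viral and bacterial origin that follows transport, mixing and stress in young beef cattle. Whole blood RNA holds the transcripts of every circulating cell. B cells carry the antigen receptor, whose signal passes through CD79A, CD79B and PLCG2, and they present antigen on MHC class II molecules. T cells signal through CD3 and CD247, and young cattle carry an unusually large circulating population of gamma-delta T cells, many of which bear WC1 receptors. In a bulk sample, fewer cells of a type and less RNA per cell cannot be told apart. The samples carried the transcripts of blood leukocytes, with PTPRC (CD45, the common leukocyte antigen) at 11.07 ± 0.07 log2 CPM in cattle with BRD and 10.95 ± 0.06 in healthy cattle (SD, n = 4).

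Compared with healthy cattle of the same supplement, cattle with BRD had lower expression of 10 of 18 B cell markers and 4 of 19 MHC class II genes. They had higher expression of 6 of 24 alpha-beta T cell markers, 4 of 12 gamma-delta T cell genes and 3 of 22 NK and cytotoxic lymphocyte genes. Of 17942 genes tested with limma on the animal means, 481 (2.68%) passed an adjusted p (Benjamini-Hochberg) below 0.10, of which 231 (1.29% of genes tested) were higher and 250 (1.39%) were lower in BRD. The smallest adjusted p was 0.0601, so none passed 0.05, while an unadjusted p below 0.05 was found for 1940 higher (10.8%) and 1805 lower genes (10.1%). The median log2 difference over all genes tested was 0.00. Values of the 2 classes did not overlap in 2340 genes (13.0%), among them 478 of the 481. All 481 differed in the same direction within pen 2 and within pen 8, which non-overlap between the classes fixes for the 478. With pen as a term in the model none passed (smallest adjusted p 0.11, 3586 genes at an unadjusted p below 0.05), and without animal 9 or without animal 21, both with BRD, none passed either.

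The gene of smallest p was LOC100847319, a locus named only by its identifier. It stood at 5.50, 5.32, 5.42 and 5.40 log2 CPM in animals 9, 21, 31 and 41, and at 6.39, 6.44, 6.25 and 6.72 in healthy animals 34, 46, 48 and 49. All 4 cattle with BRD were below all 4 healthy cattle, by 1.04 on the log2 scale (SE 0.10; limma adjusted p = 0.0601). PLCG2, the phospholipase that carries the B cell receptor signal, stood at 7.08, 6.92, 7.39 and 7.25 log2 CPM in cattle with BRD (animals 9, 21, 31 and 41) and at 8.13, 8.11, 8.43 and 8.47 in healthy cattle (animals 34, 46, 48 and 49). It was 2.18-fold lower in BRD (log2 difference -1.12, 95% confidence interval -1.41 to -0.84, limma adjusted p = 0.0601), by -1.14 within pen 2 and -1.10 within pen 8. Over single libraries, PLCG2 ranged from 6.37 to 7.88 log2 CPM in the 16 BRD libraries and from 8.03 to 8.65 in the 15 healthy libraries, so the classes were apart library by library. LOC100847319 overlapped there (up to 6.07 in BRD libraries, from 5.87 in healthy ones). Of the 20 genes of smallest p, 10 in each direction, 12 were apart library by library and 8 overlapped. These genes were picked for small p in the same animals, and libraries of 1 animal are repeats. The library counts thus add no independent support, and the same share over all genes is not given.

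LOC515418 (log2 difference -1.08), CAMK2D (-0.63), a subunit of the calcium/calmodulin-dependent kinase, and BOLA-DRB3 (-0.49), the main expressed class II DR beta chain of cattle, were likewise lower in all 4 cattle with BRD. BOLA-DRB3 stood at 9.67 ± 0.08 log2 CPM in BRD and 10.17 ± 0.05 in healthy cattle (SD, n = 4; limma adjusted p = 0.0609). MMP28, the matrix metalloproteinase epilysin, had one of the larger differences. It stood at 3.74, 3.32, 3.81 and 4.09 log2 CPM in animals 9, 21, 31 and 41 and at 5.22, 5.09, 5.79 and 5.66 in animals 34, 46, 48 and 49, a 3.25-fold lower level in BRD (log2 difference -1.70, SE 0.20, limma adjusted p = 0.0609). GSDMA, a pore-forming gasdermin, was 3.20-fold lower (log2 difference -1.68). CFAP97 (-0.48), IPO8 (-0.39), a nuclear import receptor, and CARS2 (-0.64), the mitochondrial cysteinyl-tRNA synthetase, complete the 10 lower genes of smallest p. None of the 10 overlapped between classes, which choosing them by small p favours.

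Among the 10 higher genes of smallest p, the locus LOC618416, which the paper labels LILRA6, differed most in size. It stood at 5.83, 5.93, 5.27 and 5.06 log2 CPM in animals 9, 21, 31 and 41 and at 3.88, 4.05, 3.59 and 4.01 in animals 34, 46, 48 and 49, 3.11-fold higher in BRD (log2 difference 1.64, SE 0.21, limma adjusted p = 0.0665). In healthy cattle alone, the paper places LOC618416 among genes behind enrichments that were lower in AAC than in INR at day 28. PRF1 encodes perforin, the pore-forming protein of cytotoxic granules. It stood at 6.88, 6.75, 6.55 and 6.68 log2 CPM in cattle with BRD (animals 9, 21, 31 and 41) and at 6.10, 5.87, 5.98 and 6.17 in healthy cattle (animals 34, 46, 48 and 49), 1.61-fold higher (log2 difference 0.69, SE 0.09, limma adjusted p = 0.0665). CD247, the signalling zeta chain of the T cell receptor, stood at 8.33 ± 0.10 against 7.60 ± 0.20 log2 CPM (SD, n = 4; log2 difference 0.73). ITGA5 (0.57), the alpha chain of a fibronectin receptor, PTGER4 (0.54), a prostaglandin E2 receptor, S100A11 (0.51), a calcium-binding protein, ARHGAP31 (0.54), a GTPase-activating protein for small GTPases, and CYGB (1.26), cytoglobin, were also higher, as were LOC509972 (0.60) and LOC618831 (1.32). All 4 cattle with BRD were above all 4 healthy cattle for each of these 10 genes, which choosing them by small p favours. Over all genes tested, 13.0% did not overlap.

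**Figure D1:**
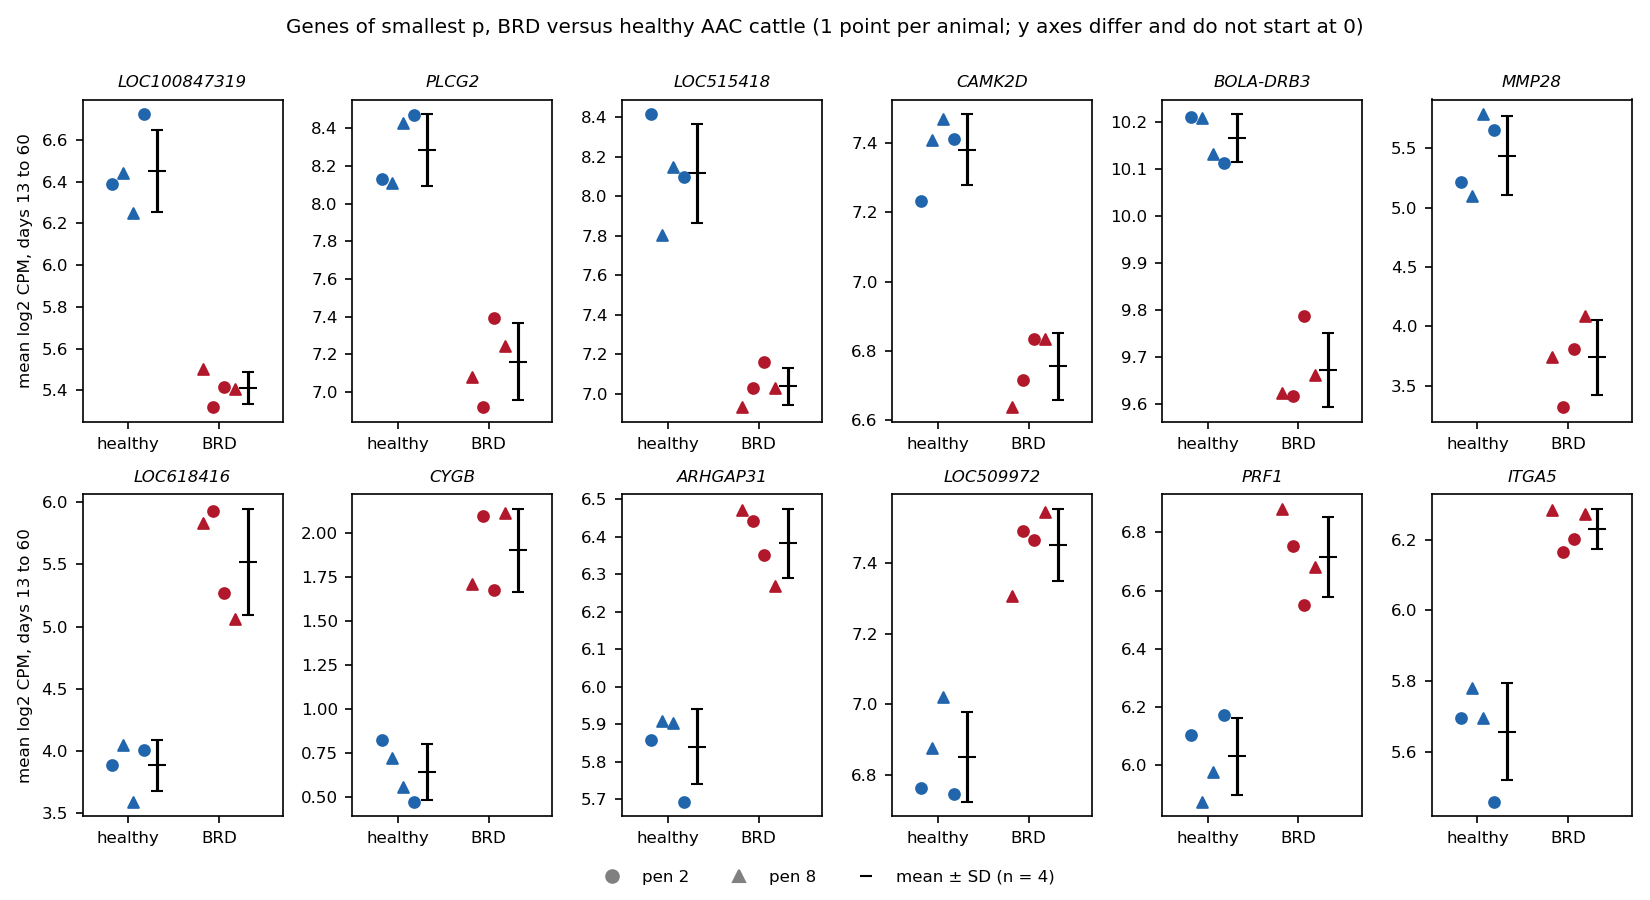
Mean log2 CPM over days 13 to 60 in each AAC steer (1 point per animal, shape by enrollment pen) for the 6 genes of smallest p lower in BRD (top) and the 6 higher (bottom), with the mean and SD of each class beside the points. In all 12 genes, picked by p from these same values, the classes do not overlap, and the points of pens 2 and 8 lie together within a class. PLCG2 sits at 7.16 ± 0.20 in BRD and 8.28 ± 0.19 in healthy cattle.

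B cell transcripts were lower across most of their list. Of 18 B cell markers tested, 10 were lower in BRD and none higher (against 1.39% of all genes called lower), and the median log2 difference over the list was -1.04. No B cell marker passed with animal 9, 21, 34, 41, 48 or 49 left out or with pen as a term. MS4A1 (CD20) stood at 8.68, 8.06, 9.0 and 8.85 log2 CPM in animals 9, 21, 31 and 41 and at 9.39, 9.47, 9.85 and 10.14 in animals 34, 46, 48 and 49, which was 2.09-fold lower in BRD (log2 difference -1.06, SE 0.23, limma adjusted p = 0.0926). BANK1, a B cell scaffold protein and the member of smallest p, differed by -1.02 (SE 0.17, adjusted p = 0.0904). The others included the complement receptor CR2 (-0.94), the lineage factors PAX5 (-1.15) and EBF1 (-1.19), the survival factor receptors TNFRSF13C (-1.39) and TNFRSF13B (-0.73), and the Fc receptor-like FCRL1 (-1.23) and FCRLA (-1.30). CD79A, the receptor's signalling chain and the list member of highest mean log2 CPM, did not pass (log2 difference -0.56, limma adjusted p = 0.11). CD79B did not pass either (-1.25, limma adjusted p = 0.105), although neither gene overlapped between classes. The exceptions were BLK (0.43), FCER2 (0.14) and VPREB3 (-0.40), whose values overlapped, and BLK is also held in the gamma-delta list. The summed CPM of the list was 2345, 1717, 2855 and 2705 in animals 9, 21, 31 and 41, and 3813, 3584, 4899 and 5262 in animals 34, 46, 48 and 49. Every healthy steer was thus above every steer with BRD, and the median difference was -1.20 within pen 2 and -0.87 within pen 8. Of 18 genes of plasma cells and antibody secretion none passed (3 higher and 1 lower at an unadjusted p below 0.05), with a median of 0.13 and JCHAIN, the joining chain of secreted antibody, at 8.97 ± 0.46 and 9.19 ± 0.37 log2 CPM (SD, n = 4).

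Antigen presentation genes were lower in part. Of 19 MHC class II genes tested, 4 were lower and none higher in BRD (against 1.39% of all genes called lower), with a list median of -0.37. Besides BOLA-DRB3 these were CD74, the invariant chain (-0.63, adjusted p = 0.0904), RFX5, a factor of class II promoters (-0.44), and BOLA-DOA (-0.82), a peptide exchange modulator prominent in B cells. The class II transactivator CIITA, also held in the B cell and interferon-gamma response lists, did not pass (-0.63, limma adjusted p = 0.101). BOLA-DRA, the DR alpha chain, stood at -0.38 (limma adjusted p = 0.117). The summed CPM of the list was 7981, 7724, 8419 and 7894 in cattle with BRD (animals 9, 21, 31 and 41) and 10300, 11090, 13140 and 11430 in healthy cattle (animals 34, 46, 48 and 49), without overlap, whereas the mean log2 CPM over the list overlapped between the classes (5.74 to 7.02 in BRD, 6.31 to 7.52 in healthy cattle). The list median was -0.19 without animal 31 and also -0.19 without animal 46, and no class II gene passed when animal 9, 21, 34, 41, 48 or 49 was left out or with pen as a term. The DQ genes differed between animals within both classes. BOLA-DQA5 had 0 counts in all libraries of animals 31, 34, 41 and 49 and at least 1670 counts in every library of animals 9, 21, 46 and 48. BLA-DQB had 0 counts in all libraries of animal 49 and varied within animal 31, with 1446 and 1878 counts on days 13 and 28 and 0 on days 0, 45 and 60. Reads of such closely alike, polymorphic genes are uncertain, and the same holds for the WC1 family below.

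Of 24 alpha-beta T cell and naive T cell markers, 6 were higher in BRD and none lower (against 1.29% of all genes called higher), all 24 had a difference above 0, and the median log2 difference was 0.51. None passed with animal 9, 21, 41, 48 or 49 left out or with pen as a term, and 2 did without animal 34. The 6 were CD247, CD3E (0.61) and CD3G (0.70), chains of the T cell receptor complex, CD8A (0.85), the coreceptor of cytotoxic T cells, and the proximal kinases LCK (0.53) and ZAP70 (0.65). The helper coreceptor CD4 differed by 0.40 (adjusted p = 0.473) and the naive cell marker CCR7 by 0.27 (adjusted p = 0.329), and neither passed. The summed CPM of the list was 5371, 4829, 5021 and 5242 in animals 9, 21, 31 and 41, and 4394, 3980, 3519 and 2968 in animals 34, 46, 48 and 49. Its median difference was 0.47 within pen 2 and 0.54 within pen 8.

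Of 12 gamma-delta T cell genes, 4 were higher and none lower (against 1.29% of all genes called higher), with a median of 0.61. Without animal 46 there were 2, with all 26 animals in the fit 1, and with animal 9, 21, 34, 41, 48 or 49 left out or pen as a term none. The 4 were WC1.3, a scavenger receptor of these cells, and the transcription factors GATA3 (0.83), SOX4 (0.87) and SOX13 (1.11). WC1.3 stood at 7.79, 8.26, 7.66 and 8.83 log2 CPM in animals 9, 21, 31 and 41 and at 7.02, 6.26, 7.03 and 7.11 in animals 34, 46, 48 and 49, a 2.43-fold higher level in BRD (log2 difference 1.28, SE 0.28, limma adjusted p = 0.0937). It was higher in all 4 cattle with BRD, although the log2 difference was 0.90 within pen 2 and 1.66 within pen 8. GATA3 is also the factor of T helper type 2 cells, and SOX4 is not restricted to gamma-delta cells.

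Of 22 NK and cytotoxic lymphocyte genes, 3 were higher and none lower (against 1.29% of all genes called higher), with a median of 0.44. None passed with animal 9, 21, 34, 41, 48 or 49 left out, with pen as a term or with all 26 animals in the fit. Besides PRF1 the 3 were CTSW, a protease of cytotoxic cells (0.92, limma adjusted p = 0.0904), and EOMES, a factor of effector and memory cytotoxic cells (0.65, limma adjusted p = 0.0937). NKG7 (0.67, limma adjusted p = 0.102) and GZMM (0.84, limma adjusted p = 0.111) did not pass, and GZMB differed by 0.00. TBX21, the list member of highest mean log2 CPM, lay in the other direction (-0.51, limma adjusted p = 0.112). NCR1, a receptor that marks NK cells, stood at 0.32 (adjusted p = 0.633), and KLRB1 and KLRF1 were at -0.72 and -0.45 and did not pass. The 3 that passed are shared by cytotoxic T cells and NK cells.

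**Figure D2:**
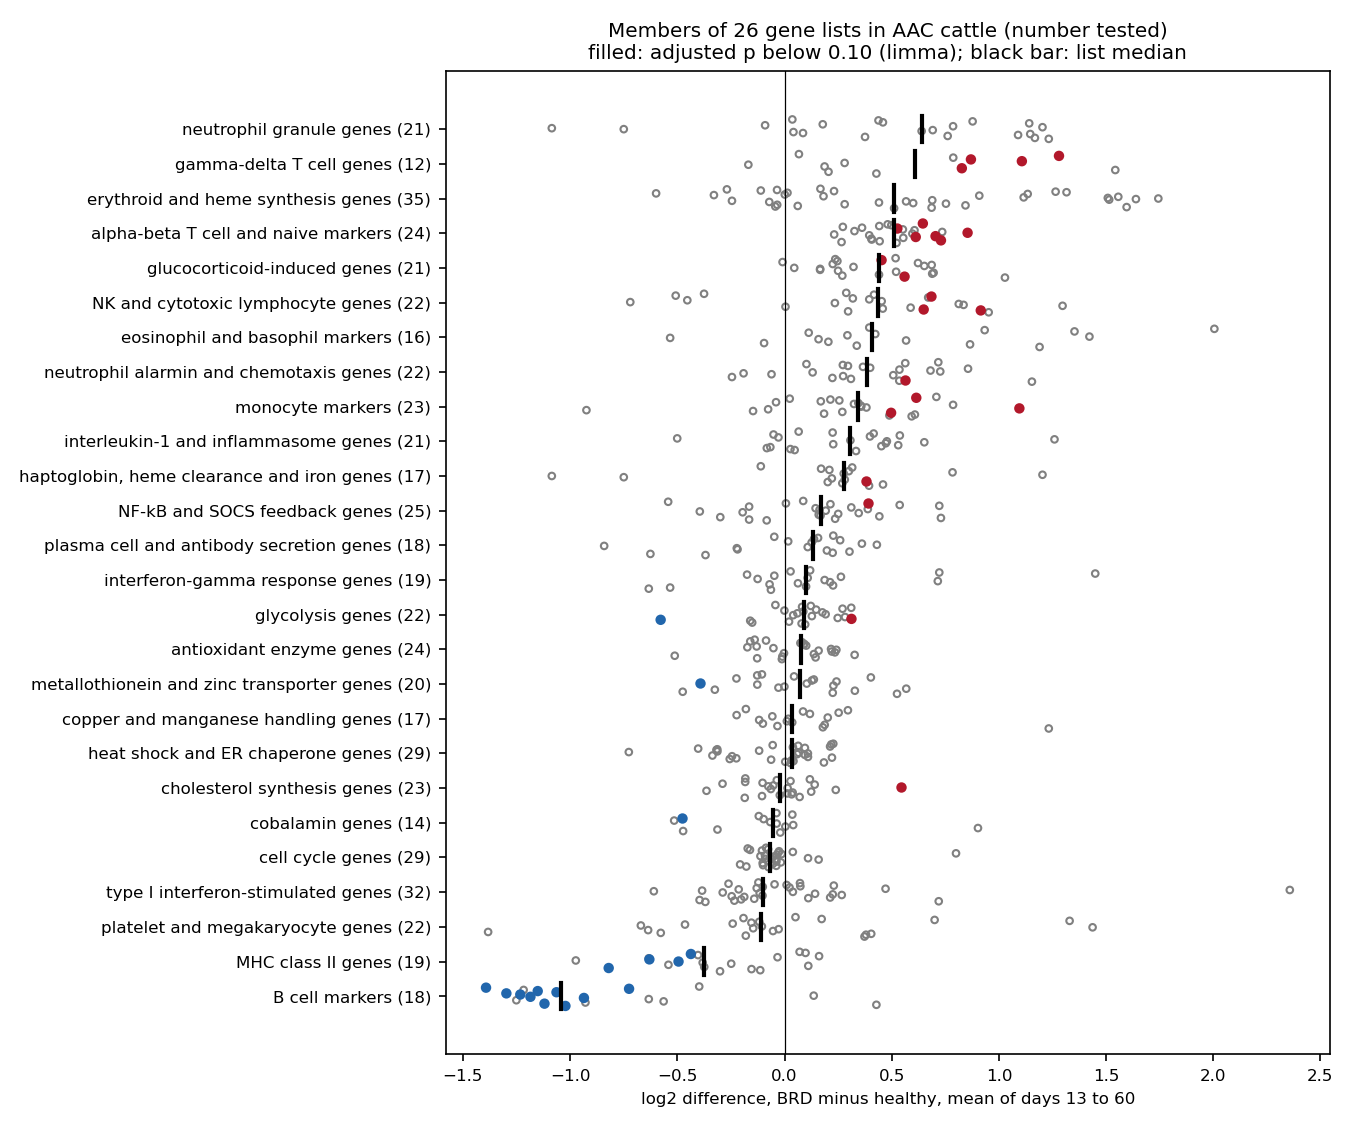
Log2 difference between BRD and healthy AAC cattle (x axis, mean of days 13 to 60) for the tested members of 26 gene lists, with filled points for an adjusted p below 0.10, red higher and blue lower in BRD, and a black bar at each list median. The B cell list lies farthest to the left, at a median of -1.04 with 10 filled points, and the neutrophil granule, gamma-delta T cell, erythroid and alpha-beta T cell lists lie farthest to the right, at medians of 0.64, 0.61, 0.51 and 0.51, beside a median of 0.00 over all genes tested.

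Lists of myeloid transcripts had medians above 0. Of 23 monocyte markers, 3 were higher (against 1.29% of all genes called higher), namely CLEC7A, a receptor for fungal glucans (1.10), TLR4 (0.61) and its partner CD14 (0.50), and the list median was 0.34. Its summed CPM was 6022, 7653, 4438 and 5157 in animals 9, 21, 31 and 41, and 4242, 4083, 3766 and 3761 in animals 34, 46, 48 and 49, without overlap. LYZ was the list member of highest mean log2 CPM. The mean log2 CPM over the list overlapped between the classes (5.24 to 6.10 in BRD, 5.04 to 5.33 in healthy cattle). None of 21 neutrophil granule genes passed (8 higher and 2 lower at an unadjusted p below 0.05), with a median of 0.64 and LYZ, lysozyme, at a log2 difference of 0.79 (adjusted p = 0.103). HP, haptoglobin, an acute phase protein, was at -0.75 in BRD (adjusted p = 0.152), opposite in sign to the median of that list. Of 22 neutrophil alarmin and chemotaxis genes, only ANXA1 passed (0.56), and S100A8 did not (0.37, adjusted p = 0.117). ANXA1 and TSC22D3 (0.45), both induced by glucocorticoids, were the 2 of 21 glucocorticoid-induced genes that passed, with a list median of 0.44. None of 16 eosinophil and basophil markers passed (3 higher at an unadjusted p below 0.05), and their median of 0.41 was 0.94 within pen 2 and -0.02 within pen 8. The part of these myeloid transcripts in the T cell and B cell differences was not tested.

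Red cell transcripts differed widely between libraries of both classes. None of 35 erythroid and heme synthesis genes passed (6 higher at an unadjusted p below 0.05), with a median of 0.51. The globin genes took 1.89%, 1.98%, 0.627% and 3.1% of counts on average in animals 9, 21, 31 and 41, and 0.402%, 1.77%, 0.482% and 0.142% in animals 34, 46, 48 and 49 (two-sided exact permutation p = 0.0571). The highest share in BRD was 8% at day 13 in animal 41, and HBB stood at 11.34 ± 1.19 and 9.83 ± 1.57 log2 CPM (SD, n = 4; limma adjusted p = 0.337). With the 3 libraries of over 5% globin counts left out, 499 genes passed, 425 of them among the 481, and the medians of the B cell and alpha-beta T cell lists were -1.04 and 0.54. None of 22 platelet and megakaryocyte genes passed either (2 higher and 1 lower at an unadjusted p below 0.05), and their median was 0.40 within pen 2 and -0.58 within pen 8. Of 17 genes for heme clearance and iron, only FTH1, ferritin heavy chain, passed (0.38, against 1.29% of all genes called higher). At an unadjusted p below 0.05, 6 of the 17 were higher and 2 lower, and the list median was 0.28.

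Genes of the interferon response and of mineral handling showed little. None of 32 type I interferon-stimulated genes passed (1 higher at an unadjusted p below 0.05), with a median of -0.10. SAMD9, the member of highest mean log2 CPM, stood at 9.33 ± 0.22 in BRD and 9.25 ± 0.13 log2 CPM in healthy cattle (SD, n = 4). None of 19 interferon-gamma response genes passed (median 0.10; 2 higher and 1 lower at an unadjusted p below 0.05), nor did any of 21 interleukin-1 and inflammasome genes (median 0.31; 4 higher and 1 lower). Of 25 NF-kB and SOCS feedback genes 1 passed, TNFAIP3, an inhibitor of NF-kB (0.39; against 1.29% of all genes called higher). Since the cattle were fed complexed trace minerals, the handling of those minerals was followed in 3 lists. Of 20 metallothionein and zinc transporter genes 1 passed (against 1.39% of all genes called lower). It was SLC39A10, a zinc importer, lower in BRD (-0.39, SE 0.07, limma adjusted p = 0.0904), at 5.55 ± 0.05 against 5.95 ± 0.11 log2 CPM (SD, n = 4). SLC30A1, a zinc exporter, stood at -0.33 (limma adjusted p = 0.128). Of 14 cobalamin genes, MTR, the cobalamin-dependent methionine synthase, was lower (-0.48, adjusted p = 0.097) and MMACHC, which processes cobalamin, did not pass (-0.51, adjusted p = 0.111). None of 17 copper and manganese handling genes passed, nor did any of 24 antioxidant enzyme genes, 29 heat shock and ER chaperone genes or 29 cell cycle genes. At an unadjusted p below 0.05 these lists held 1 lower, 1 lower, 2 higher and 5 lower, and 1 higher gene in that order. Of 23 cholesterol synthesis genes 1 passed, with a list median of -0.02. Of 22 glycolysis genes, HIF1A, a factor of the hypoxia response, was lower (-0.58) and HK1, a hexokinase, was higher (0.31).

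Blood drawn at day 0, the day of enrollment, addressed whether the classes already differed at enrollment. No gene passed the test at day 0 (smallest adjusted p 0.183 by limma, and none by edgeR), with 2325 genes (13.0%) at an unadjusted p below 0.05. Of the 481 genes, 475 (98.8%) had a day 0 difference of the same direction in these same animals, as did 13732 of all 17942 genes tested. The B cell list had a median log2 difference of -1.17 at day 0, with MS4A1 at -1.15 (adjusted p = 0.24), and the alpha-beta and gamma-delta T cell lists had medians of 0.40 and 0.61. MMP28 (-1.82), AFAP1, an actin filament-associated protein (1.52), and LOC112448333, a small nucleolar RNA locus by RefSeq (-2.26), were the 3 genes of smallest p at day 0, each at an adjusted p of 0.183. AFAP1 was also 3.04-fold higher in BRD over days 13 to 60 (log2 CPM 3.21 ± 0.25 against 1.60 ± 0.56, SD, n = 4; adjusted p = 0.0904), and LOC112448333 stood at a log2 difference of 0.03 there (limma adjusted p = 0.977).

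The change from day 0 to the mean of days 13 to 60 did not separate the classes for any gene. The smallest adjusted p was 0.992, with 550 genes (3.07%) at an unadjusted p below 0.05. The median of this difference in change was 0.07 for the B cell list, 0.07 for the alpha-beta T cell list and -0.04 for the gamma-delta list. For MS4A1 it was 0.09 with a 95% confidence interval of -0.23 to 0.40, and for PLCG2 0.29 (-0.54 to 1.13). MTIF2, the mitochondrial initiation factor (-1.25), ETS1, a lymphocyte transcription factor (3.47), and DNAJC6 (0.83) had the smallest p and did not pass.

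**Figure D3:**
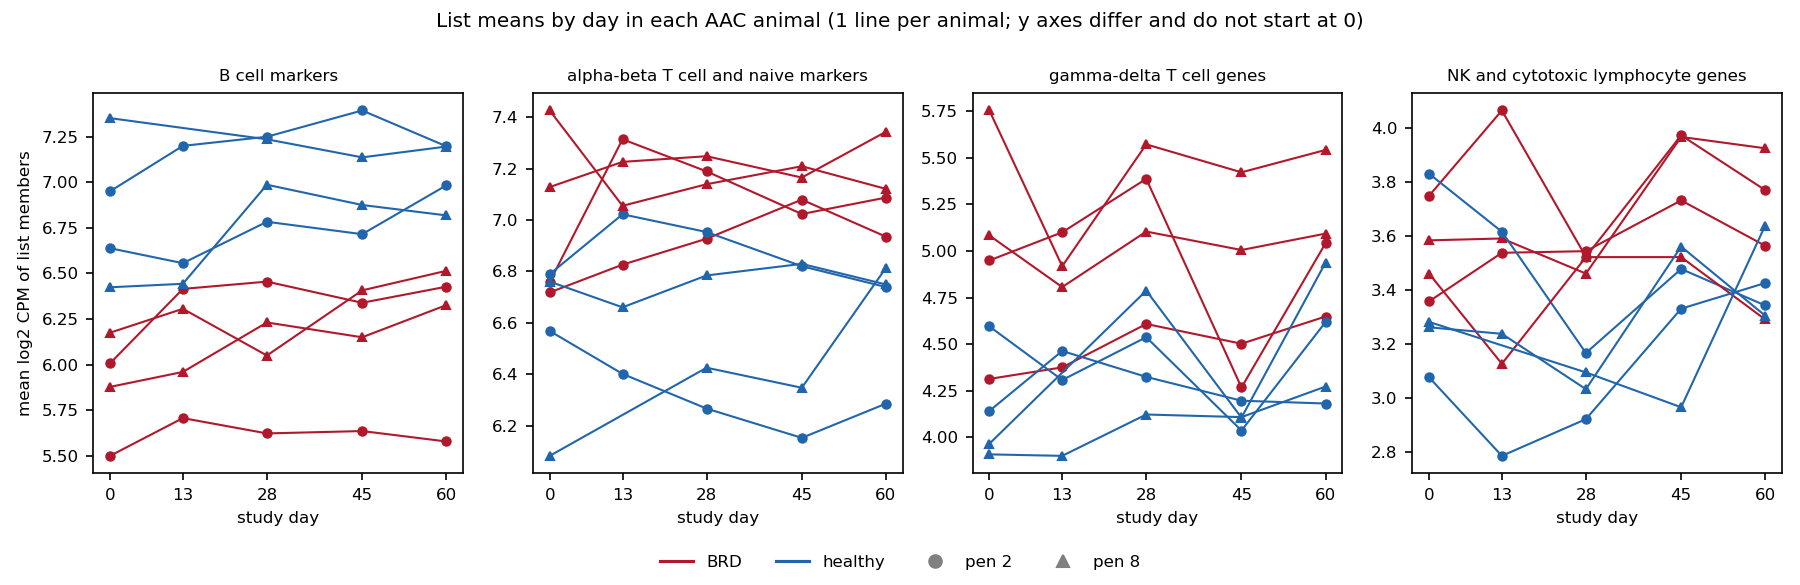
Mean log2 CPM of the members of 4 lists (y axis) on study days 0, 13, 28, 45 and 60 (x axis) in each AAC steer, red with BRD and blue healthy, shape by enrollment pen. On each day the 4 red B cell lines lie below the blue ones, from a class mean of 5.89 against 6.84 at day 0 to 6.21 against 7.05 at day 60, while the lines of the other 3 lists cross.

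Single days gave unequal numbers of calls. At day 28, 853 genes (4.75%) passed, 367 of them among the 481. That count was 0 without animal 49, 2 without animal 9, 5 without animal 48, 6 without animal 21, 197 without animal 46 and 400 without animal 41. At day 13, with 3 healthy animals, 2 genes passed (0.0111%), LOC101907133 (-4.27) and LPAR3, a lysophosphatidic acid receptor (-3.47), both of low level, with means of -1.73 and -0.44 log2 CPM over days 13 to 60. edgeR called none at day 13 (1873 genes at an unadjusted p below 0.05), and with an animal left out at most 1 of the 2 passed. At day 45 another 2 passed (0.0111%), PLCG2 (-1.59, adjusted p = 0.0774) and TFIP11, a splicing factor (-1.98). edgeR called none at day 45 (2758 genes at an unadjusted p below 0.05), and both genes passed without animal 31, 1 of the 2 without animal 46 and neither with any other animal left out. At day 60 none passed by limma or by edgeR, with 2404 genes at an unadjusted p below 0.05. The B cell median was -0.86, -1.20, -1.07 and -0.99 on days 13, 28, 45 and 60, and the alpha-beta T cell median was 0.34, 0.51, 0.62 and 0.45. Medians of some other lists changed sign between days, at 0.93, -0.10, 0.28 and 0.32 for the erythroid list and -0.25, 0.35, -0.03 and -0.27 for the type I interferon list. For MS4A1 the difference was -0.86, -1.21, -1.08 and -1.02 on the same days. Differences between days were not tested.

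Cattle fed the sulfate minerals (INR) gave a comparison of the same 2 classes under another supplement, with 7 steers with BRD and 4 healthy steers. Their pens overlapped less, since pen 7 held only steers with BRD, and no library is shared with the AAC comparison. Among INR cattle no gene passed (smallest adjusted p 0.807 by limma, 1000 genes or 5.57% at an unadjusted p below 0.05, of which 581 or 3.24% were higher in BRD). Of the 481 genes, 215 (44.7%) differed in the same direction in INR cattle, as did 40.7% of all genes tested. The B cell list, at a median of -1.04 in AAC cattle, had a median of 0.03 in INR cattle, with MS4A1 at -0.02 (SE 0.25). The medians of the alpha-beta T cell, gamma-delta T cell and NK and cytotoxic lists were 0.05, 0.04 and 0.10 in INR cattle. The B cell list mean was 6.13 ± 0.35 log2 CPM in AAC cattle with BRD (SD, n = 4), 7.00 ± 0.26 in healthy AAC cattle (n = 4), 6.86 ± 0.33 in INR cattle with BRD (n = 7) and 6.82 ± 0.38 in healthy INR cattle (n = 4).

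No gene passed the test of whether the BRD minus healthy difference differed between supplements, so this is not shown for any single gene. The smallest adjusted p was 0.212 by limma with 3244 genes (18.1%) at an unadjusted p below 0.05, among them 14 of the 18 B cell markers. For PLCG2 the AAC difference exceeded the INR difference (-0.04) by -1.08 (95% confidence interval -1.55 to -0.61, adjusted p = 0.212). The 3 genes of smallest p were TRERF1, a transcriptional regulator (0.31 in AAC and -0.29 in INR), SURF2 (-0.65 and 0.41) and GRWD1, a histone-binding factor of ribosome assembly (-0.41 and 0.24), all at an adjusted p of 0.212.

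**Figure D4:**
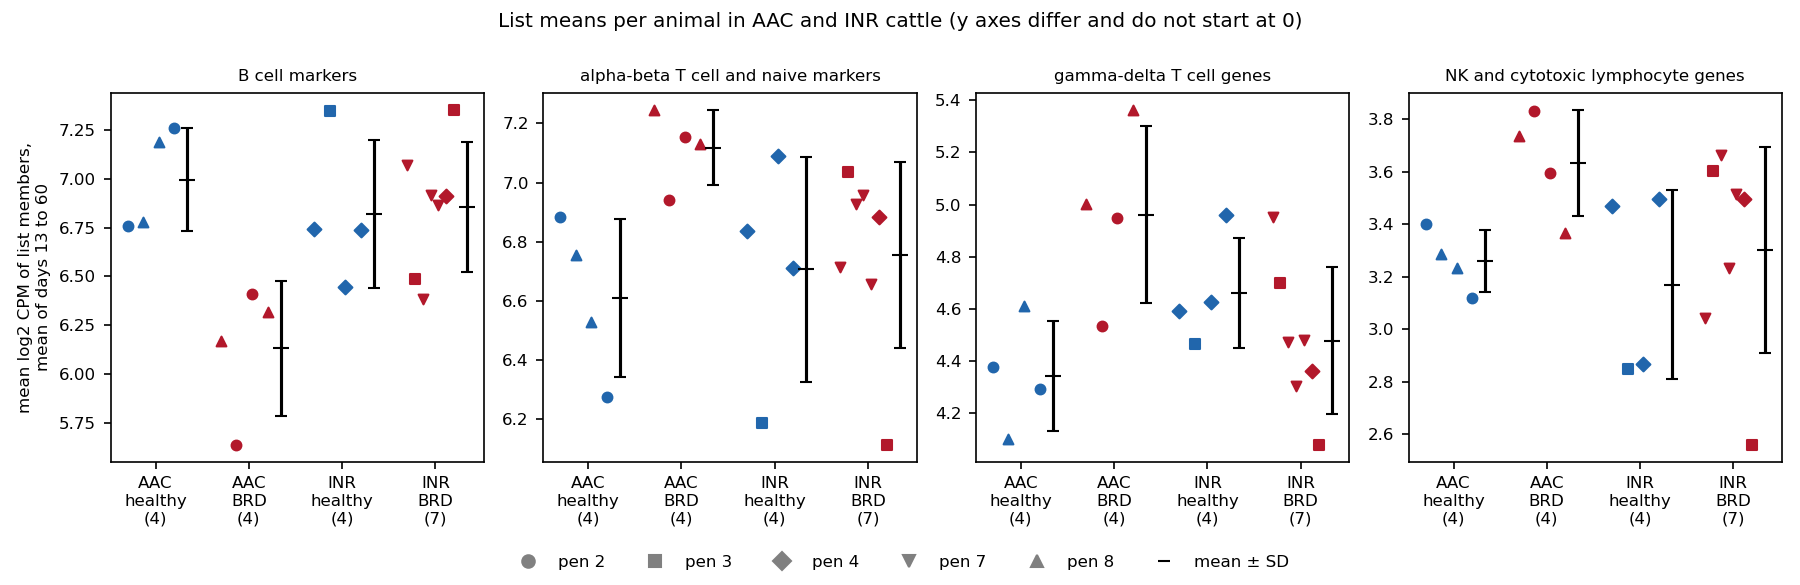
Mean log2 CPM of list members over days 13 to 60 (y axis) in each AAC and INR steer by class, shape by enrollment pen, with the mean and SD beside the points. The 4 AAC cattle with BRD span 5.64 to 6.41 in the B cell list, below the healthy AAC cattle (6.76 to 7.26), while the INR classes overlap, from 6.39 to 7.35 with BRD and from 6.44 to 7.35 in healthy cattle.

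The number of genes that passed rested on single animals. Leaving out animal 9 or animal 21, both with BRD, left no gene, leaving out animal 48 or animal 49 left 1, animal 41 left 6 and animal 34 left 20, whereas 718 passed without animal 31 and 587 without animal 46. With each animal left out in turn, the B cell median ran from -1.15 to -0.87, the alpha-beta T cell median from 0.39 to 0.63, the gamma-delta median from 0.48 to 0.70, the NK and cytotoxic median from 0.33 to 0.58 and the class II median from -0.43 to -0.19. edgeR's quasi-likelihood test on summed counts called 217 genes, 213 of them among the 481, with 0.518% of genes higher and 0.691% lower in BRD, and it called 2 B cell markers and 3 class II genes lower and 2 alpha-beta T cell markers, 1 gamma-delta T cell gene and 2 NK and cytotoxic genes higher. DESeq2 called 2933, including 16 B cell markers as lower.

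**Figure D5:**
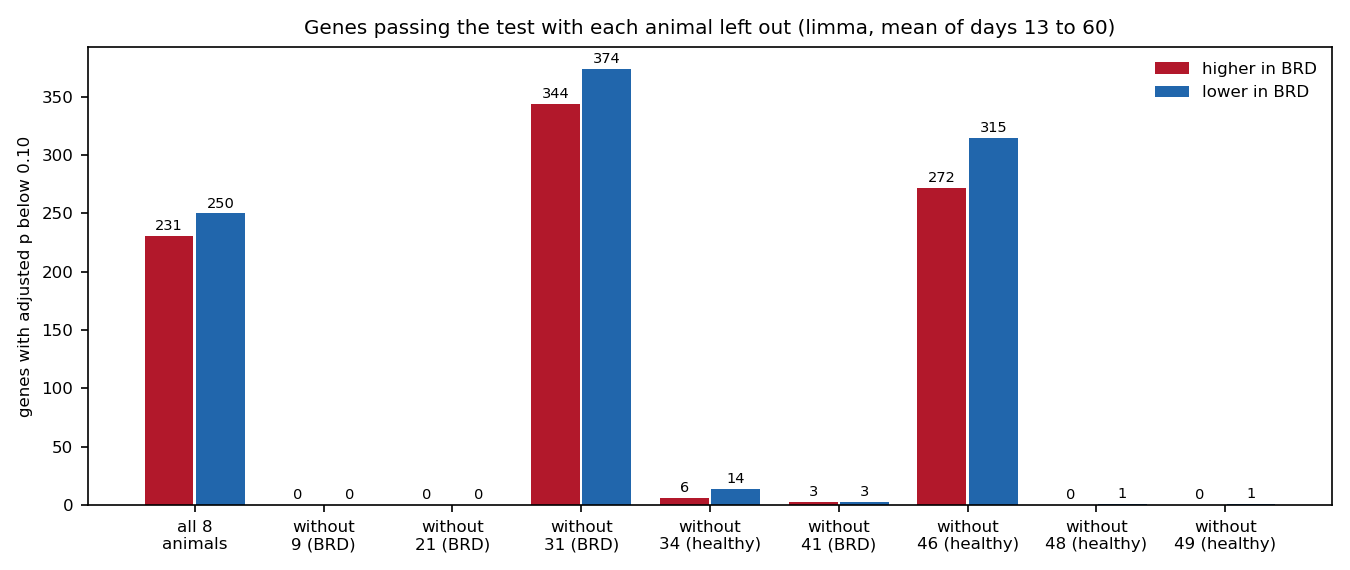
Number of genes with an adjusted p below 0.10 (limma, mean of days 13 to 60), higher in BRD in red and lower in blue, with all 8 AAC steers and with each left out. The bars stand at 231 and 250 with all 8 steers, at 0 without animal 9 or animal 21, and at 344 and 374 without animal 31.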

How the data were processed

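Whole blood RNA from 26 steers was sequenced as stranded mRNA libraries, and the values used are the raw gene counts the authors deposited as 1 table of 32395 genes for 39 AAC, 55 INR and 35 COMBO libraries. Per the labels and the study's methods, reads were checked with FastQC 0.11.9, trimmed with Trimmomatic 0.39, aligned with HISAT2 (version 2.1.1 in the submitters' processing notes, another version in the methods) to ARS-UCD1.3 and assembled with StringTie 2.2.0, and counts per gene were derived from coverage, so that reads of near-identical copies can be split between them.

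Trimmed mean of M-values factors were taken over all libraries in edgeR 4.0.16. Genes were kept with filterByExpr over the 39 AAC libraries by class and day, leaving 17942, and log2 CPM (prior count 2) was averaged per animal. Classes were compared with limma 3.58.1 (trend), with Benjamini-Hochberg adjustment over all genes kept and a threshold of 0.10. Summed counts per animal were also tested with edgeR and DESeq2 1.42.0 in R 4.3.3. The tests were also run on simulated data, and no result of that check is used here. The comparison of each library with the animals was chosen after seeing the data.

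Named genes were the 10 of smallest p in each direction with a mean log2 CPM of at least 0, the member of smallest p and of highest level of each list, the 3 of smallest p in each further comparison, and PTPRC, HBB and HP. Other list members that passed or are quoted, and genes called on single days, were named after their values were seen. Values of some genes are not reported here, although they count in their lists. Members and lists were chosen with earlier results of these data known. No symbol was converted, and list symbols that matched no row were left out. Nothing in the labels gives litter or origin, so p-values measure the spread between these steers. COMBO cattle, whose 2 classes were in different pens, entered only the shared scaling and the fit of all 26 animals.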

Additional observations from a re-analysis of the deposited data

Results flagged for a closer look

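Within a class of 4 animals, a steer was singled out by its gap to the nearest other as a share of the class range. That share had to exceed Dixon's 95% critical value for 4 samples (0.829). Of 204 class values of named genes and list means, 14 met this, where chance gives about 1 in 20.

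Among cattle with BRD, animal 21 was highest for PTGER4 (7.51 log2 CPM, others 7.29 to 7.31), TSC22D3 (10.18, others 9.78 to 9.82), the mean of glucocorticoid-induced genes (5.86, others 5.36 to 5.41) and the mean of interleukin-1 and inflammasome genes (4.83, others 4.28 to 4.34). Animal 31 was lowest for FTH1 (10.4, others 10.63 to 10.65) and HSPA8 (9.4, others 9.84 to 9.9). Animal 9 was highest for IL1RL1 (4.64, others 3.55 to 3.68) and LOC112448333 (4.44, others 2.73 to 2.98). Animal 41 was lowest for the mean of heat shock and ER chaperone genes (6.54, others 6.71 to 6.73).

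Among healthy cattle, animal 49 was highest for GRWD1 (4.91, others 4.55 to 4.58), and animal 46 was lowest for WC1.3 (6.26, others 7.02 to 7.11). Animal 48 was highest for the mean of cholesterol synthesis genes (6.02, others 5.73 to 5.77) and lowest for the mean of monocyte markers (5.04, others 5.29 to 5.33). IL33 stood at -3.81 in animal 34 and at -4.49, the value of 0 counts, in the other healthy cattle.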

How the results depend on the processing

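The count of genes in the days 13 to 60 comparison (481) was within 1.5 times under RLE factors, TMM factors over AAC libraries alone, a prior count of 0.5 and without the 3 libraries of over 5% globin counts (chosen after seeing the data). It moved to 217 with edgeR, 292 with edgeR's common dispersion, 2933 with DESeq2 and 3405 with limma voom on single libraries with the correlation within animals. It was 770 at a mean log2 CPM of at least 1, 232 on days 28, 45 and 60 only and 280 with all 26 animals in the fit. No gene passed with no filter on low counts or with pen as a term. At an adjusted p below 0.05 the count was 0, but 1944 with DESeq2, 2479 with limma voom and 1 with all 26 animals in the fit. Without animal 34, 46 or 49 it was 7, 3 or 1 at that threshold. The cause of these moves was not tested. With one animal left out the count at 0.10 ran from 0 to 718. At day 0 the count was 2 with a prior count of 0.5 and 0 to 1 with an animal left out. The change from day 0 and the AAC minus INR difference stayed at 0 genes under every alternative run, animals left out included (0 to 0). For single days, edgeR gave 0 at day 13 and 0 at day 45, and leaving out an animal gave 0 to 4 at day 13, 0 to 735 at day 28, 0 to 132 at day 45 and 0 to 4 at day 60. None of the 57 named genes that passed changed direction under any alternative of that comparison. No paired analysis was possible because the BRD and healthy classes share no animal and so no replicate number. Pen as a term was the one block fitted to the animal means. The limma voom fit on single libraries took in the correlation within animals. With 4 animals a class and illness dates not known, the calls at 0.10 rest on few steers, and low counts limit loci with a mean log2 CPM below 0, such as LPAR3.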

Other observations

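In a principal component analysis of the 8 AAC animal means, the first component held 27.7% of the variance. Animals 9, 21, 31 and 41 scored -25.9, -58.4, -0.6 and -22.9 on it, and healthy animals 34, 46, 48 and 49 scored 9.9, 10.3, 31.7 and 55.9. Animal 31 lay nearest to the healthy cattle there and apart from all others on the third component (13.2% of the variance, score -56.2).

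For cell cycle genes no difference passed adjustment in AAC cattle, in INR cattle or between the supplements. In INR cattle, 20 of 29 were higher in BRD at an unadjusted p below 0.05 (median log2 difference 0.35), beside 3.24% of all genes. In AAC cattle 1 of 29 was, NUSAP1 (median -0.07), beside 10.8% of all genes. For the difference between the supplements 13 of 29 had an unadjusted p below 0.05, beside 18.1% of all genes.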
